A study of Mus musculus with 4 samples.

Results

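T cells carry many inhibitory receptors beside PD-1. The genes described here are 8 of the 32285 genes in the 4 deposited matrices: Lag3, Tigit, Havcr2 (which encodes TIM-3), Ctla4, Btla, Cd160, Cd200 and Cd244a (2B4). They were taken by symbol, every symbol had a row, and the rule itself uses no measured value. The members were, however, chosen with earlier results of these data known. Single-cell 5′ RNA libraries had been made from live T cells that were flow-sorted from the draining lymph nodes of mice with MC38-OVA tumours. MC38-OVA is a mouse colon carcinoma line that expresses ovalbumin.

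The 4 libraries cross genotype with treatment. KO-DOX came from mice with PD-L1 (Cd274) deleted in dendritic cells and given doxorubicin, an anthracycline chemotherapy drug. WT-DOX came from control-genotype mice given doxorubicin, KO-CTRL from knockout mice with control treatment and WT-CTRL from control-genotype mice with control treatment. All 4 groups bore the tumour. Each group is 1 library, so no difference between groups has a replicate check and none was tested. Intervals below are 95% intervals for counting error only, and UMIs of 1 cell are not independent. The promoter that drives the deletion, the number of mice behind a library, the ages, the dose and the time after treatment were not stated in the labels.

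These receptors restrain T cells after activation. Ctla4 encodes the receptor that binds CD80 and CD86 with higher affinity than the costimulatory receptor CD28, and regulatory T cells carry it constitutively. Btla and Cd160 both bind the TNF-receptor family member HVEM, Tigit competes with the activating receptor CD226 for the poliovirus receptor CD155, and LAG-3 binds MHC class II. TIM-3 marks terminally differentiated effector and exhausted T cells, 2B4 binds CD48, and CD200 is the ligand of the inhibitory receptor CD200R rather than a receptor itself. Follicular helper cells, the CD4 T cells that help B cells in lymph nodes, carry high PD-1, TIGIT, BTLA and CD200.

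Depth was alike across the libraries. After filtering, 47505 cells were kept, of which 45461 were gated as T cells by at least 1 UMI of Cd3d, Cd3e or Cd3g. These were 9736 cells in KO-DOX, 11567 in WT-DOX and 12193 in KO-CTRL, against 11965 in WT-CTRL, and their median UMIs per cell were 3027, 3024, 3063 and 3105 in that order. Levels are CPM, the UMIs of a gene per 1000000 UMIs of the gated cells of a library. Against the labelled cell type, 95.5% to 96.1% of the kept cells had a Cd3 UMI. Summed B cell markers reached 8.01 to 10.5 CPM over the T cells, natural killer markers 353 to 429 CPM and macrophage and monocyte markers 3.29 to 4.22 CPM with Fcgr1 at 0 in all 4. Dendritic cell markers summed to 36.1 to 45.1 CPM, with Clec9a and Siglech at 0 outside KO-DOX. Plasma cell markers summed to 34.1 to 37.8 CPM and those of stroma and endothelium to 95.1 to 110 CPM. Of the latter, Ccl21a and Pdpn were at 0 in all 4 libraries, so that sum came from Pecam1 and Col1a1. In the CD8 gate described below, natural killer markers summed to 617 to 708 CPM, with Ncr1 at 0 outside WT-DOX. Dendritic cell markers there summed to 66.1 to 74.3 CPM, with Siglech at 0 in all 4 libraries. In the CD4 gate these sums were 25.5 to 74.4 and 4.67 to 8.51 CPM. Between 175 and 271 barcodes were shared by each pair of libraries. Cd274 itself stood at 82.6 CPM in KO-DOX, 65.1 in WT-DOX and 83.6 in KO-CTRL, against 66.9 in WT-CTRL. Sorted T cells are not the cells in which the gene was deleted, so these values do not check the genotype label.

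Cells were placed in gates by single marker genes. The CD4 gate needs 1 UMI of Cd4 and none of Cd8a, Cd8b1 or Foxp3 (7601 cells). The CD8 gate needs 2 UMIs of Cd8a and Cd8b1 together and none of Cd4 or Foxp3 (18229 cells). The Foxp3 gate needs 1 UMI of the regulatory T cell factor gene Foxp3 and none of Cd8a or Cd8b1 (755 cells). CD4 cells were divided by at least 1 UMI of a follicular marker (Cxcr5, Tox2, Sostdc1 or Il21), and CD8 cells by at least 2 UMIs of Ccl5, a chemokine gene of effector and memory CD8 cells. A cell whose Foxp3 transcript was missed at this depth falls into the CD4 gate. Likewise, a follicular cell whose markers were all missed is placed with the other CD4 cells. T cells outside the gates (40.5% to 41.8% of the T cells) enter only the totals. By the rules above such cells can still carry gate markers. Examples are a cell with only 1 UMI of Cd8a and a cell with UMIs of both Cd4 and Cd8a.

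On GRCm38, in the GENCODE M21 annotation, the members lie on 5 chromosomes and all are protein-coding. Tigit (chr16:43648867-43664146, minus strand), Btla (chr16:45224315-45257670, plus strand) and Cd200 (chr16:45382135-45409053, minus strand) are on the same chromosome. Ctla4 (chr1:60887000-60915832) and Cd244a (chr1:171559193-171609746) are both on the plus strand. Lag3 (chr6:124904361-124911705) and Cd160 (chr3:96798763-96829351) are on the minus strand and Havcr2 (chr11:46454935-46481255) is on the plus strand.

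RefSeq promoter windows of 250 bases before to 50 bases after the annotated start (GRCm38.p6) were matched for 7 of the 8 genes, all but Lag3. Those of Tigit, Havcr2, Ctla4 and Cd200 are shown 5′ to 3′ on the gene's strand, because these genes were higher in KO-DOX than in WT-DOX. Capitals mark matches, on either strand, to 1 of the 8 motifs searched.
Tigit: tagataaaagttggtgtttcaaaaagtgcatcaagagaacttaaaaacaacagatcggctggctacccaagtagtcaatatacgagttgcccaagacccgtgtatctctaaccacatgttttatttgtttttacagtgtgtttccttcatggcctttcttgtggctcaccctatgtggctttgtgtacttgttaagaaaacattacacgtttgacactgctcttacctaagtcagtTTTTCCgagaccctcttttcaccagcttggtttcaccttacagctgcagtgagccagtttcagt
Havcr2: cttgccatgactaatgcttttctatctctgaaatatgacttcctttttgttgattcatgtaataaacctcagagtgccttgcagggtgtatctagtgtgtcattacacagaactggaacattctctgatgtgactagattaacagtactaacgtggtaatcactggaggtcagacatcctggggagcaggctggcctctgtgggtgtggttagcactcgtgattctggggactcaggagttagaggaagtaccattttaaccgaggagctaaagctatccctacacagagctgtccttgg
Ctla4: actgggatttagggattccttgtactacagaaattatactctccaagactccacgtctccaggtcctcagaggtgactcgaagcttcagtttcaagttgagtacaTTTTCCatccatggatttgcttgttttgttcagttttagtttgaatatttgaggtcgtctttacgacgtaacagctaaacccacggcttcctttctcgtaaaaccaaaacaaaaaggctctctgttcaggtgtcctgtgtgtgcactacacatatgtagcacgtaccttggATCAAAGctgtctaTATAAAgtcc
Cd200: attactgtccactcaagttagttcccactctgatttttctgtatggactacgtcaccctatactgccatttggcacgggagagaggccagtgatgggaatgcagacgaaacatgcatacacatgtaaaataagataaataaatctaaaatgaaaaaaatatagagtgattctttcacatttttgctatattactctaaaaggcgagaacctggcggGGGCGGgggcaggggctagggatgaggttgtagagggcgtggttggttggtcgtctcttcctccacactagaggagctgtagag
The windows are chr16:43664135-43664434 (minus strand) for Tigit, chr11:46454681-46454980 (plus strand) for Havcr2, chr1:60908775-60909074 (plus strand) for Ctla4 and chr16:45409004-45409303 (minus strand) for Cd200. Positions of matches are counted from 0 at the RefSeq start of the window. The Ctla4 window lies inside the GENCODE gene given above, so its positions do not refer to the GENCODE start. The same holds for the second window of Cd160, which is not printed.

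The motifs were searched on both strands, and their shares are given among 32851 promoters. The NFAT core GGAAAA was in 23.4% of them, the GC box GGGCGG in 35.7%, the TATA box TATAAA in 13.6% and the TCF core (CTTTGAA, also searched as CTTTGTT and also as CTTTGAT) in 13.9%. The AP-1 site (TGACTCA, with the other middle base TGAGTCA) was in 5.20%, the CRE TGACGTCA in 1.79%, the ETS core CCGGAAG in 8.86% and the GAS motif TTCNNNGAA in 8.30%. The NFAT core matched at -14 in Tigit and at -145 in Ctla4. Ctla4 also held a TCF core at 26 and a TATA box at 40, and Cd200 a GC box at -34. The window of Havcr2 held none of the 8 motifs, and no motif was common to the 4 windows. In the windows not printed, Cd244a held an AP-1 site at -122, Btla none, and Cd160, which has 2 windows, held a GC box at -152, TCF cores at -232 and -93 and a GAS motif at -234 that overlaps the TCF core, all in the second.

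**Figure D1:**
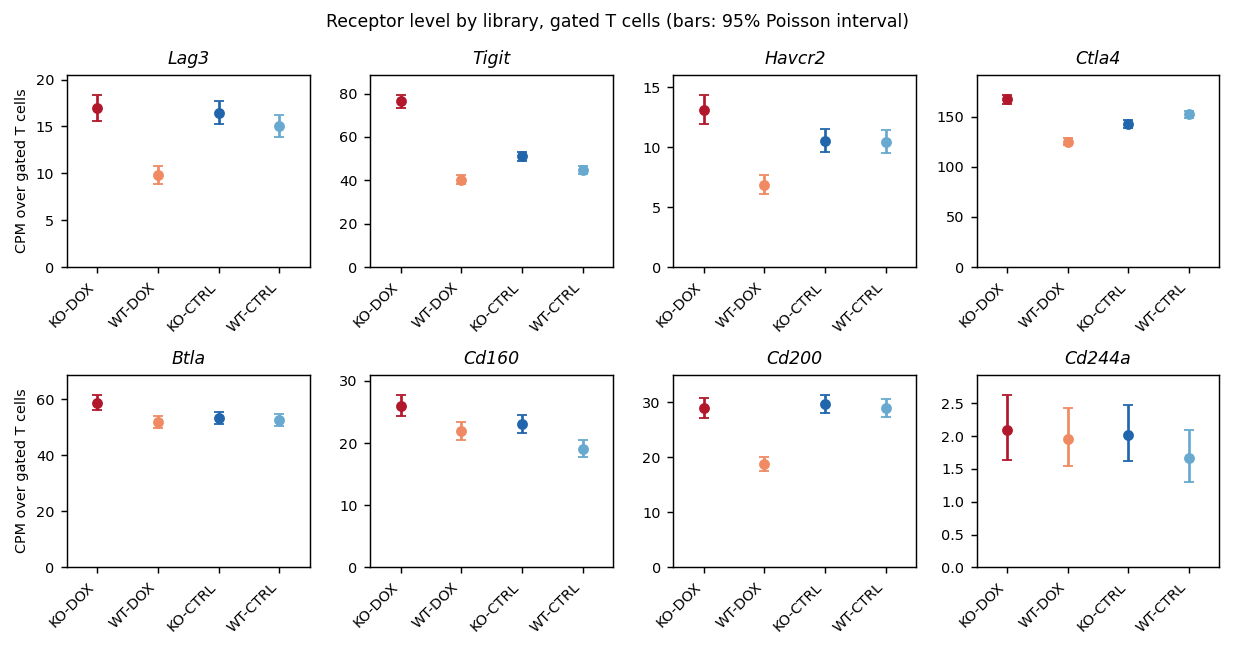
Level of each of the 8 genes over all gated T cells, in CPM (vertical axis, from 0), by library. Bars of error are 95% Poisson intervals of 1 library each; Tigit stands at 76.4 CPM in KO-DOX and between 40.4 and 51.0 CPM in the other libraries.

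Over all gated T cells, KO-DOX had the higher level of 5 of the 7 members counted when set against WT-DOX: Tigit, Havcr2, Lag3, Cd200 and Ctla4. Members counted are those of at least 2 CPM on average and at least 100 UMIs in all over the libraries, which leaves out Cd244a. A difference was counted when the log2 fold of CPM plus 1 was past 0.32 in size. Of the 10412 genes within the same limits, 539 (5.18%) were higher in KO-DOX than in WT-DOX by that size and 166 were lower. Where the members passed the size in 1 direction only, the share of all genes is given for that direction. That direction was taken from the members' own values, so a share in either direction would be larger. The median log2 fold was 0.60 over the members and 0.02 over all genes. Fewer cells that carry a transcript and fewer copies per cell cannot be told apart in such sums.

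Tigit had 76.4 CPM in KO-DOX (interval 73.5 to 79.3), 40.4 in WT-DOX (38.4 to 42.4) and 51.0 in KO-CTRL (48.9 to 53.1), against 44.8 in WT-CTRL (42.8 to 46.8). The KO-DOX library was the highest, KO-CTRL, WT-CTRL and WT-DOX followed in that order, and no interval overlapped with the next. The order of the last pair was not kept by other measures, with a log2 fold of WT-DOX over WT-CTRL of 0.08 with each cell at the same weight and 0.05 with 6 strata of cells at equal proportions, in place of -0.15. Thinned to 2000 UMIs per cell, 481 of 9611 T cells had Tigit in WT-DOX and 452 of 10060 in WT-CTRL, so WT-DOX had the higher share. The ratio of KO-DOX to WT-DOX was 1.89 (interval 1.78 to 2.01) and that of KO-DOX to KO-CTRL was 1.50 (1.42 to 1.58). Havcr2, the TIM-3 gene, had 13.1 CPM in KO-DOX, 6.84 in WT-DOX and 10.5 in KO-CTRL, against 10.4 in WT-CTRL. Here WT-DOX was the lowest and the control-treated libraries were level. Its ratio of KO-DOX to WT-DOX was 1.91 (1.65 to 2.23) and that of WT-DOX to WT-CTRL was 0.656 (0.563 to 0.763).

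Lag3, whose product binds MHC class II, had 16.9 CPM in KO-DOX, 9.80 in WT-DOX and 16.4 in KO-CTRL, against 15.0 in WT-CTRL. Cd200, the CD200R ligand gene, had 28.9 CPM in KO-DOX, 18.7 in WT-DOX and 29.6 in KO-CTRL, against 28.9 in WT-CTRL. Both genes were low in WT-DOX alone. The ratio of KO-DOX to WT-DOX was 1.73 (interval 1.52 to 1.97) for Lag3 and 1.54 (1.40 to 1.70) for Cd200. That of WT-DOX to WT-CTRL was 0.653 (0.576 to 0.741) for Lag3 and 0.647 (0.591 to 0.709) for Cd200.

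Ctla4 had 167 CPM in KO-DOX (163 to 171), 125 in WT-DOX (121 to 128) and 142 in KO-CTRL (139 to 146), against 152 in WT-CTRL (149 to 156). The treated libraries were the extremes and the control-treated ones lay between them. The ratio of KO-DOX to WT-DOX was 1.34 (interval 1.29 to 1.39), a log2 fold of 0.42. With 6 cell strata (follicular and other CD4, Ccl5 and other CD8, Foxp3 and the remaining T cells) held at equal proportions, an alternative chosen after seeing the data, this log2 fold was 0.319 and no longer past the size. The other 4 members stayed past it, with 0.65 for Tigit, 0.59 for Lag3, 0.82 for Havcr2 and 0.41 for Cd200.

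The HVEM receptors Btla and Cd160 differed less. Btla had 58.7 CPM in KO-DOX, 51.8 in WT-DOX and 53.3 in KO-CTRL, against 52.5 in WT-CTRL. Cd160 had 25.9 CPM in KO-DOX, 21.9 in WT-DOX and 23.0 in KO-CTRL, against 19.1 in WT-CTRL. Neither passed the size in any of the 4 comparisons over T cells. Cd244a was near the limit of these data, with 2.09 CPM in KO-DOX, 1.95 in WT-DOX and 2.01 in KO-CTRL, against 1.66 in WT-CTRL from 73 to 90 UMIs a library. Its intervals overlapped in all 4 libraries (1.64 to 2.62 in KO-DOX and 1.30 to 2.09 in WT-CTRL), so no difference was detectable at this depth.

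The other 3 comparisons over T cells share libraries with this one and with each other, each library entering 2 of them. Between KO-DOX and KO-CTRL only Tigit was past the size, where 1.18% of all genes were higher, and the members' median log2 fold was 0.16. Havcr2 and Ctla4 lay just inside, at log2 folds of 0.29 and 0.23, and both passed it, making 3 members, when each cell had the same weight or when cells with 2 or more UMIs of Mki67 and Top2a were left out. Between WT-DOX and WT-CTRL 3 members were lower, Lag3, Havcr2 and Cd200, where 4.14% of all genes were lower, and the median was -0.29. Without the cells with Mki67 and Top2a the log2 fold of Havcr2 there was -0.25, inside the size. Between KO-CTRL and WT-CTRL 0 of 7 members were past it, where 3.06% of all genes were, and Cd160 had the widest log2 fold at 0.26. That of Cd160 was 0.05 with each cell at the same weight and 0.03 without the cells with Mki67 and Top2a, where Tigit had the widest at 0.26 and 0.22. Each comparison sets 1 library against 1, so no p-value is given.

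Transcripts of dividing cells differed between the same libraries. Mki67 stood at 85.0 CPM in KO-DOX, 49.2 in WT-DOX and 88.8 in KO-CTRL, against 76.5 in WT-CTRL, and Top2a at 114, 72.7, 115 and 105 CPM in that order (both genes were picked after their values were seen). Cells with a follicular marker made up 20.1% of the CD4 gate in KO-DOX, 12.6% in WT-DOX and 16.0% in KO-CTRL, against 13.3% in WT-CTRL. Without the cells that had 2 or more UMIs of Mki67 and Top2a the 5 members were again past the size between KO-DOX and WT-DOX.

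**Figure D2:**
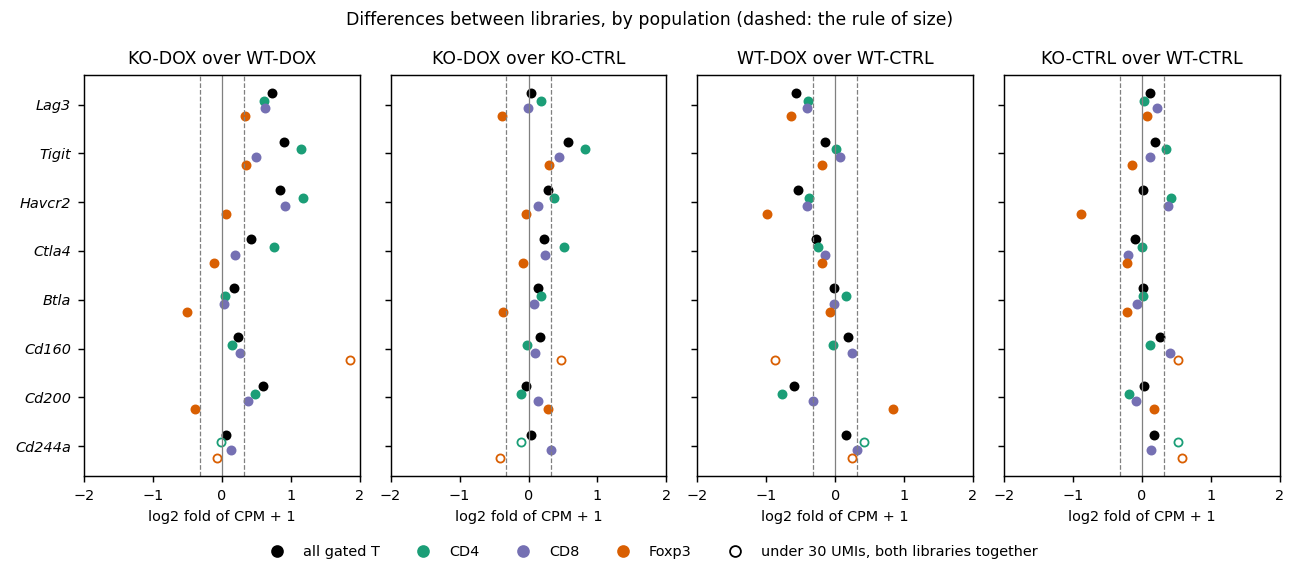
Log2 fold of CPM plus 1 of each gene (horizontal axis) in 4 comparisons, 1 panel each, for all gated T cells and the CD4, CD8 and Foxp3 gates. Dashed lines stand at 0.32 in either direction and open symbols rest on under 30 UMIs in both libraries together; the CD4 dots of Tigit (1.15) and Havcr2 (1.18) lie farthest right between KO-DOX and WT-DOX among the filled symbols.

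The gates placed the receptors in different cells. Foxp3 cells had the highest Ctla4 and Havcr2, Foxp3 and follicular CD4 cells shared the highest Tigit, CD8 cells with Ccl5 had the highest Cd160 in each library, and follicular CD4 cells had the highest Btla, Cd200 and Lag3. The levels below are compared across gates within a gene, never between genes. Follicular genes chose the follicular gate, but none of the 8 members took part in a gate.

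Ctla4 was highest in the Foxp3 gate, at 791 CPM in KO-DOX, 857 in WT-DOX and 838 in KO-CTRL, against 974 in WT-CTRL. Follicular CD4 cells followed with 332 to 466 CPM over the libraries and other CD4 cells with 131 to 211. CD8 cells with and without Ccl5 came last, with 62.9 to 78.9 and 73.4 to 88.3 CPM, ranges that overlap. The Foxp3 gate held 15.6% to 20.9% of all Ctla4 UMIs of T cells, though only 2.7% to 3.5% of all UMIs. A Foxp3-positive cell with Ctla4 held 6.73 to 9.10 UMIs of it on average, and the highest count in a cell was 80.

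Tigit ranges overlapped between the Foxp3 and follicular gates. It ranged from 297 to 380 CPM in Foxp3 cells and from 259 to 463 CPM in follicular CD4 cells. CD8 cells with Ccl5 had 26.7 to 56.8 CPM and other CD4 cells 17.8 to 59.8, which overlap as well, and other CD8 cells had 15.8 to 23.2 CPM. The lowest value of the first pair of gates was above the highest of the rest.

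Lag3 was highest in follicular CD4 cells, at 54.8 to 80.3 CPM over the libraries, ahead of 31.2 to 52.2 in Foxp3 cells. CD8 cells with Ccl5 (17.2 to 23.2 CPM) overlapped with other CD4 cells (11.8 to 22.3), and other CD4 cells with other CD8 cells (7.85 to 13.5). Havcr2 was highest in Foxp3 cells and next in CD8 cells with Ccl5. It reached 53.3 to 107 CPM in Foxp3 cells and 26.3 to 45.6 CPM in CD8 cells with Ccl5, against 4.29 to 12.0 CPM in follicular CD4 cells, 4.47 to 14.0 in other CD4 cells and 4.89 to 10.8 in other CD8 cells. The last 3 ranges overlap.

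Btla was highest in follicular CD4 cells (194 to 254 CPM), and other CD4 cells (55.8 to 66.9) and Foxp3 cells (42.3 to 64.0) overlapped below them. CD8 cells with Ccl5 had 28.4 to 40.6 CPM and the other CD8 cells 34.3 to 37.5 CPM. Cd200 had 144 to 235 CPM in follicular CD4 cells, 31.3 to 56.9 in Foxp3 cells, 26.7 to 40.6 in other CD4 cells and at most 14.0 in either CD8 gate. Follicular CD4 cells held 22.1% to 33.8% of all Cd200 UMIs of T cells, beside 2.9% to 5.5% of all UMIs.

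Cd160 UMIs lay mostly in the CD8 gate. It had 35.6 to 74.5 CPM in CD8 cells with Ccl5 and 27.1 to 37.2 CPM in other CD8 cells, and the CD8 gate held 66.5% to 74.5% of its UMIs beside 43.7% to 49.0% of all UMIs. Follicular CD4 cells had 24.7 to 31.1 CPM, close to CD8 cells without Ccl5, whereas other CD4 cells had 3.64 to 5.66 and Foxp3 cells 1.84 to 9.31 CPM. Cd244a was highest in CD8 cells with Ccl5 at 2.96 to 6.72 CPM, against 0.546 to 3.76 CPM in the 4 other gates, ranges that overlap.

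**Figure D3:**
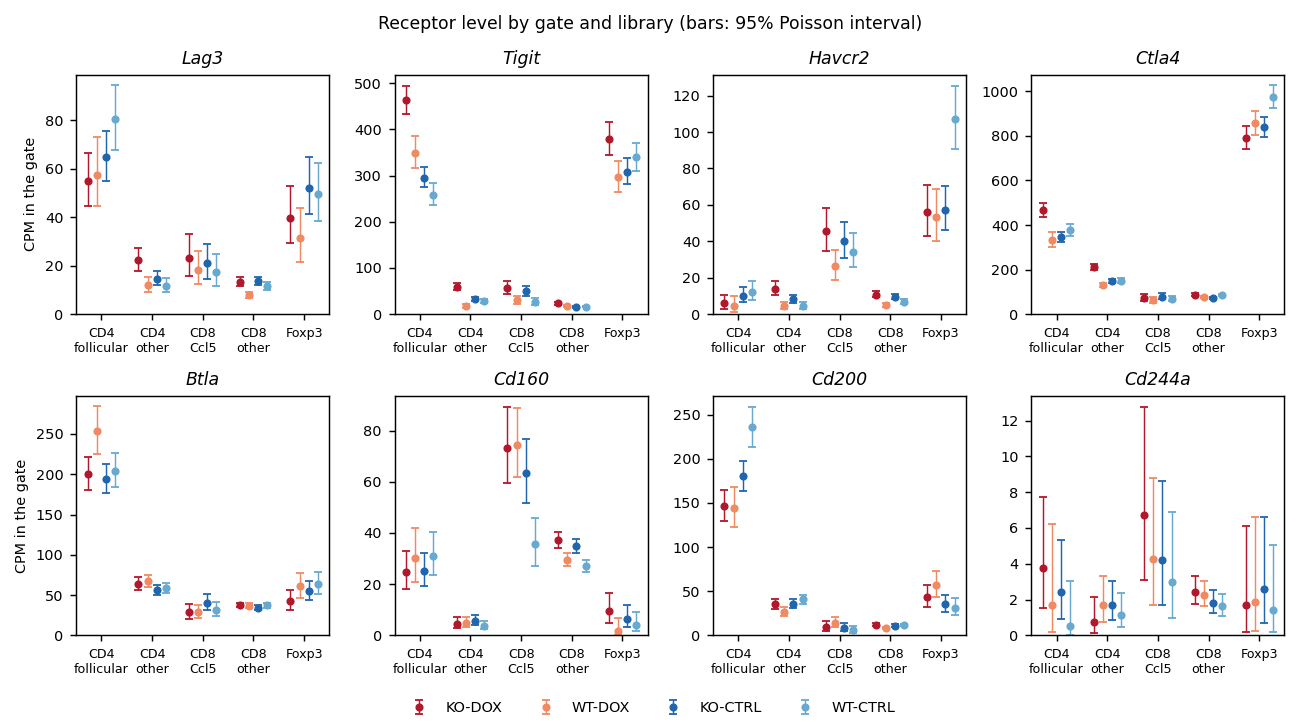
Level of each gene in CPM (vertical axis, from 0, own scale per gene) in 5 gates by library, with 95% Poisson intervals. Ctla4 is highest in Foxp3 cells (791 to 974 CPM), Btla in follicular CD4 cells (194 to 254 CPM), and Havcr2 in Foxp3 cells (53.3 to 107 CPM) ahead of CD8 cells with Ccl5 (26.3 to 45.6 CPM).

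Within the CD4 gate Lag3, Tigit, Havcr2, Ctla4 and Cd200 were again the members higher in KO-DOX than in WT-DOX, 5 of 7. Of 9773 genes there, 1039 (10.6%) were higher by the size and 655 were lower. Tigit had 185 CPM in KO-DOX, 82.7 in WT-DOX and 105 in KO-CTRL, against 81.8 in WT-CTRL, with a ratio of KO-DOX to WT-DOX of 2.24 (interval 2.01 to 2.49). Ctla4 had 290 CPM in KO-DOX (log2 fold 0.76 over WT-DOX), 171 in WT-DOX and 203 in KO-CTRL, against 203 in WT-CTRL. KO-DOX was the highest library for both genes. Havcr2 rested on few UMIs, at 11.5 CPM in KO-DOX, 4.54 in WT-DOX and 8.67 in KO-CTRL, against 6.23 in WT-CTRL, with a ratio of KO-DOX to WT-DOX of 2.54 (1.61 to 4.12).

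Tigit was higher in KO-DOX than in WT-DOX on both sides of the follicular split. In CD4 cells without a follicular marker Tigit had 59.8 CPM in KO-DOX, 17.8 in WT-DOX and 33.2 in KO-CTRL, against 28.1 in WT-CTRL. With the marker it had 463 CPM in KO-DOX, 349 in WT-DOX and 296 in KO-CTRL, against 259 in WT-CTRL. The ratio of KO-DOX to WT-DOX was 3.37 (interval 2.62 to 4.36) without the marker and 1.33 (1.18 to 1.50) with it. For Ctla4 it was 1.61 (1.45 to 1.78) without and 1.40 (1.24 to 1.59) with it. Lag3 had 22.3 CPM in KO-DOX against 11.9 in WT-DOX without the marker, and 54.8 against 57.4 CPM with it. Btla ran the other way among follicular cells, at 200.4 CPM in KO-DOX against 254 in WT-DOX. Cd200 was close between these libraries in follicular cells, with 272 of 1861319 UMIs in KO-DOX and 168 of 1166314 in WT-DOX. Without the marker it was higher in KO-DOX, with 145 of 4129567 UMIs against 128 of 4785993. The part of the larger follicular share of KO-DOX in the Cd200 difference of the CD4 gate was not tested.

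Markers of another cell type differed between the same libraries in the CD4 gate. Summed natural killer markers there were 74.4 CPM in KO-DOX, 25.5 in WT-DOX and 57.1 in KO-CTRL, against 44.7 in WT-CTRL, while Ncr1, which defines natural killer cells, was at 0 in all 4 libraries. Their part in the CD4 differences was not tested.

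The other comparisons put fewer members of the CD4 gate past the size. Against KO-CTRL, 3 members were higher in KO-DOX (Tigit, Havcr2 and Ctla4), where 6.28% of genes were. Against WT-CTRL, 3 members were lower in WT-DOX (Lag3, Havcr2 and Cd200), where 7.5% of genes were, and Cd200 had the widest log2 fold at -0.78 (49.7 CPM in WT-DOX, 85.9 in WT-CTRL). Without the cell with the most UMIs of the gene in each library, the log2 fold of Havcr2 there was -0.15. Tigit and Havcr2 were higher in KO-CTRL than in WT-CTRL, where 6.3% of genes were, but neither passed the size when the gate needed 2 Cd4 UMIs, and Havcr2 then turned to a log2 fold of -0.10. With those gates Cd200 between KO-DOX and WT-DOX was at 0.21 in place of 0.48.

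In the CD8 gate 4 of 8 members were higher in KO-DOX than in WT-DOX, Lag3, Tigit, Havcr2 and Cd200. Of 10204 genes there, 642 (6.29%) were higher and 306 were lower. Havcr2 had 13.5 CPM in KO-DOX, 6.65 in WT-DOX and 12.2 in KO-CTRL, against 9.15 in WT-CTRL. The ratio of KO-DOX to WT-DOX was 2.03 (interval 1.63 to 2.53) for Havcr2, 1.61 (1.32 to 1.97) for Lag3, 1.43 (1.24 to 1.64) for Tigit and 1.33 (1.08 to 1.64) for Cd200. Cd200 fell below the size, at 0.31, when the gate needed 3 UMIs of Cd8a and Cd8b1.

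Ctla4 in CD8 cells had 87.2 CPM in KO-DOX, 76.5 in WT-DOX and 73.8 in KO-CTRL, against 85.2 in WT-CTRL, inside the size in every comparison. Against KO-CTRL the CD8 cells of KO-DOX had more Tigit (25.8 against 18.7 CPM) and Cd244a (2.76 against 1.99 CPM), where 1.85% of genes were higher, and the ratio of Cd244a had an interval of 0.889 to 2.17. Cd244a lost the size without its top cell and under both other gate settings. Lag3, Havcr2 and Cd200 were lower in WT-DOX than in WT-CTRL, where 6.3% of genes were lower. Cd200 was near the size there, at a log2 fold of -0.33, and inside it with doublets kept, without its top cell or with the stricter gate.

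In CD8 cells Cd160 was lowest in WT-CTRL. Among CD8 cells with Ccl5 it had 73.2 CPM in KO-DOX, 74.5 in WT-DOX and 63.3 in KO-CTRL, against 35.6 in WT-CTRL. WT-CTRL alone was low. The ratio of WT-DOX to WT-CTRL was 2.10 (interval 1.53 to 2.90) and that of KO-CTRL to WT-CTRL was 1.78 (1.29 to 2.49). Tigit in the same cells had 56.8 CPM in KO-DOX, 30.5 in WT-DOX and 49.6 in KO-CTRL, against 26.7 in WT-CTRL. By level both knockout libraries stood above both control-genotype ones, from 45 to 83 UMIs a library. The unthinned share of these cells with Tigit was 20.2% in KO-DOX, 15.0% in WT-DOX and 19.4% in KO-CTRL, against 12.7% in WT-CTRL. The thinned share was 8.98%, 8.99%, 8.71% and 6.93% in that order, so WT-DOX was then level with the knockout libraries. In the whole CD8 gate Havcr2 and Cd160 were higher in KO-CTRL than in WT-CTRL, where 3.06% of genes were.

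Foxp3 cells gave no direction common to the members. They were 163 cells in KO-DOX, 168 in WT-DOX and 226 in KO-CTRL, against 198 in WT-CTRL, and with so few UMIs 30.1% of 6420 genes were past the size in either direction between KO-DOX and WT-DOX. Of the 6 members counted, Lag3 and Tigit were higher there in KO-DOX and Btla and Cd200 lower. Cd160 and Cd244a, with 29 and 10 UMIs in this gate, were not counted. Tigit had 380 CPM in KO-DOX, 297 in WT-DOX and 309 in KO-CTRL, against 340 in WT-CTRL, and its ratio of KO-DOX to WT-DOX was 1.28 (interval 1.11 to 1.48). The intervals of the other 3 ratios held 1, and Lag3 and Cd200 each lost the size without its top cell and reversed when the gate needed 2 Foxp3 UMIs.

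Havcr2 in Foxp3 cells was 55.8 CPM in KO-DOX, 53.3 in WT-DOX and 57.3 in KO-CTRL, against 107 in WT-CTRL. WT-CTRL alone was high. The ratio of WT-DOX to WT-CTRL was 0.498 (interval 0.361 to 0.677) and that of KO-CTRL to WT-CTRL was 0.535 (0.408 to 0.700). In the 3 comparisons other than KO-DOX against WT-DOX, 2 members (Lag3 and Btla lower in KO-DOX than in KO-CTRL), 3 (Cd200 higher, Lag3 and Havcr2 lower in WT-DOX than in WT-CTRL) and 1 (Havcr2 lower in KO-CTRL than in WT-CTRL) were past the size. Of the 6420 genes in the gate, 816 (12.7%) were lower and 857 higher in KO-DOX than in KO-CTRL. Between WT-DOX and WT-CTRL 26.6% differed in either direction. In KO-CTRL 811 (12.6%) were lower and 609 higher than in WT-CTRL. With so many genes past the size both ways, these counts of members are not read as a result about the receptors. Natural killer markers in this gate summed to 145 CPM in KO-DOX, 33.1 in WT-DOX and 111 in KO-CTRL, against 40.3 in WT-CTRL. Ncr1 was at 0 in all 4 libraries, Klrb1c and Tyrobp were at 0 in KO-DOX and WT-DOX, and Tyrobp was at 0 in KO-CTRL. The KO-DOX sum thus came from the listed markers Nkg7 and Eomes alone. The part of these markers in the receptor values was not tested.

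The response to doxorubicin was set side by side in both genotypes. Over T cells the log2 fold of treated over control-treated libraries was 0.57 in knockout and -0.15 in control-genotype mice for Tigit, 0.29 and -0.54 for Havcr2, 0.23 and -0.29 for Ctla4, and 0.04 and -0.57 for Lag3. The negative sign of Tigit in control-genotype mice was lost with each cell at the same weight and with 6 strata at equal proportions, as given with its levels. The difference of these responses, knockout minus control genotype and without the pseudocount, was 0.92 (interval 0.64 to 1.21) for Havcr2, 0.73 (0.61 to 0.86) for Tigit, 0.66 (0.42 to 0.89) for Lag3, 0.60 (0.42 to 0.77) for Cd200 and 0.52 (0.44 to 0.59) for Ctla4. Pdcd1, the PD-1 gene, had 0.58 (0.36 to 0.80). Btla had 0.16 (0.04 to 0.28), and the intervals of Cd160 (-0.22 to 0.16) and Cd244a (-0.82 to 0.46) held 0.

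The gates differed in these values, which were not tested against each other. In CD4 cells outside the follicular gate Tigit had 1.51 (interval 1.05 to 1.97), from log2 folds of 0.83 in knockout and -0.64 in control-genotype cells, whereas follicular CD4 cells had 0.22 (-0.02 to 0.45). Ctla4 had 0.69 (0.50 to 0.89) outside the follicular gate and 0.62 (0.39 to 0.84) in it. Pdcd1 had 0.92 (0.20 to 1.63) outside that gate and 0.06 (-0.29 to 0.41) in it. The part of follicular cells whose markers were missed in the values outside the gate was not tested. In Foxp3 cells Ctla4 had 0.10 (-0.07 to 0.27) and Havcr2 0.97 (0.34 to 1.60). The Havcr2 value came from log2 folds of -0.04 in knockout and -0.99 in control-genotype cells, where WT-CTRL was the only high library. In CD8 cells the difference was 0.61 (0.19 to 1.02) for Havcr2, 0.39 (0.25 to 0.54) for Ctla4 and 0.39 (0.10 to 0.68) for Tigit.

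Each transcript was detected in a minority of the T cells. Over T cells pooled across libraries, Ctla4 was detected in 9560 of 45461 cells (21.0%), Btla in 6439 (14.2%), Tigit in 3656 (8.04%), Cd200 in 2315 (5.09%) and Cd160 in 2258 (4.97%). Lag3 was detected in 1173 cells (2.58%), Havcr2 in 555 (1.22%) and Cd244a in 308 (0.678%). The 1% of cells with the most Havcr2 held 87.2% to 100% of its UMIs in a library and a CD8 cell with Havcr2 held 3.47 to 5.06 UMIs, up to 21 in a cell. For Btla the 1% of cells with the most held 19.7% to 23.9% of its UMIs. As Havcr2 was detected in 1.22% of T cells and Btla in 14.2%, these shares follow largely from how often each gene was detected.

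B cells in the same libraries gave a background share for members that B cells lack. Among 170 B-gated cells, with median UMIs of 2165 to 2540 by library against 3024 to 3105 in T cells, 0 had Lag3, Havcr2, Cd160 or Cd244a, which allows a share of up to 1.76%. Tigit was found in 1 of them (0.588%), with all 7 Tigit UMIs, and Ctla4 in 6 (3.53%), with 8 of the 14 Ctla4 UMIs in 1 cell. B cells express Btla and Cd200 themselves, at 71 (41.8%) and 23 (13.5%) of the 170 cells. The unthinned T cell shares of Lag3, Tigit, Ctla4 and Cd160 were above these, whereas the limit for Havcr2 and Cd244a is above their T cell share. Thinned to 2000 UMIs, 0 of 110 B-gated cells had Lag3, Tigit or Cd160, which allows up to 2.73%, and 1 had Ctla4. The thinned T cell shares of Tigit (4.49% to 7.59% by library) and Ctla4 (13.1% to 16.8%) were above that limit, those of Cd160 (2.43% to 3.38%) lay on both sides of it, and those of Lag3 (0.978% to 1.53%) were below it.

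To compare shares, every cell was thinned to 2000 UMIs and shallower cells were left out (1625 of the T cells in KO-DOX, 1956 in WT-DOX and 2137 in KO-CTRL, against 1905 in WT-CTRL). In the CD4 gate 16.0% of cells had Tigit in KO-DOX, 8.59% in WT-DOX and 10.4% in KO-CTRL, against 7.80% in WT-CTRL, and unthinned 20.7%, 11.0%, 14.2% and 11.2% in that order. Ctla4 was in 27.5% of CD4 cells in KO-DOX, 16.8% in WT-DOX and 20.4% in KO-CTRL, against 18.8% in WT-CTRL. In Foxp3 cells Ctla4 was in 70.3% in KO-DOX, 63.6% in WT-DOX and 68.0% in KO-CTRL, against 64.9% in WT-CTRL. The share of CD4 cells with either gene was thus highest in KO-DOX, as was the level.

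Of the CD4, CD8 and Foxp3 gates, Foxp3 cells most often held several receptors, and the follicular part of the CD4 gate had a higher share still in each library. At least 2 of the 8 were found in 54.5% of Foxp3 cells in KO-DOX, 43.7% in WT-DOX and 37.5% in KO-CTRL, against 45.2% in WT-CTRL. In the CD4 gate they were found in 19.7%, 11.8%, 15.0% and 11.4% of cells in that order, and in the CD8 gate in 4.56%, 2.98%, 3.49% and 3.19%. The order of the 3 gates held in all 4 libraries, and KO-DOX had the highest share in each gate. Among CD4 cells with a follicular marker the share was 56.3% in KO-DOX, 52.9% in WT-DOX and 54.8% in KO-CTRL, against 49.3% in WT-CTRL, each above the share of Foxp3 cells of the same library, with intervals that overlapped outside KO-CTRL. Unthinned, follicular cells had 81.7%, 81.6%, 80.2% and 80.4% and Foxp3 cells 74.2%, 61.3%, 59.3% and 63.6% in that order. Among CD8 cells with Ccl5 the thinned share was 10.2%, 5.04%, 7.32% and 5.47% in that order. Unthinned, CD4 cells had 28.0%, 17.8%, 21.4% and 19.4%, and CD8 cells 11.4%, 9.33%, 9.64% and 10.2%.

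**Figure D4:**
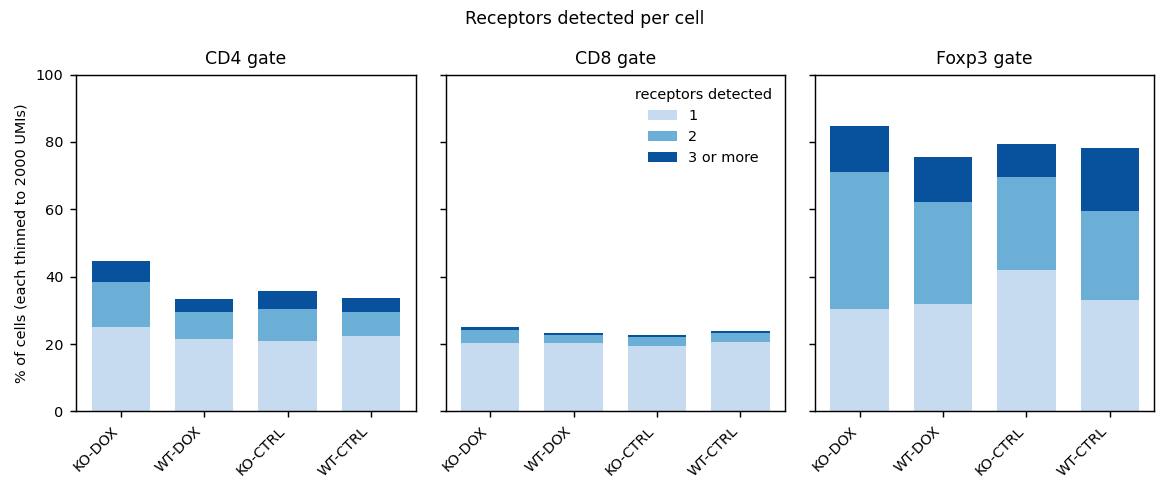
Share of cells in percent (vertical axis, from 0) with 1, 2 or at least 3 of the 8 receptors detected, by gate and library, after thinning each cell to 2000 UMIs. At least 2 receptors were found in 37.5% to 54.5% of Foxp3 cells, 11.4% to 19.7% of CD4 cells and 2.98% to 4.56% of CD8 cells.

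Pairs of receptors shared cells more often than the product of their shares gives. That product was at least 1 cell for 23 of 28 pairs in the CD4 gate, and all 23 had more cells with both, 17 with an interval above 1. In the CD8 gate it was 19 of 23 pairs, 15 with an interval above 1, and in the Foxp3 gate 14 of 19 pairs, 3 with an interval above 1. No interval lay below 1 in any of the 3 gates. Pairs of other genes were not counted in the same way, so these counts are not shown to be particular to the receptors. The median ratio was 2.28 in CD4, 1.85 in CD8 and 1.20 in Foxp3 cells. When the product was taken within library and within the follicular or Ccl5 split, the median was 1.28 in CD4 and 1.51 in CD8 cells. The part of doublets that remained after filtering was not tested.

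The widest ratio was that of Lag3 and Cd200 in CD8 cells, with 28 cells holding both where the product gave 1.68, a ratio of 16.6. These were 6 cells in KO-DOX, 7 in WT-DOX and 10 in KO-CTRL, against 5 in WT-CTRL, and within strata the ratio was 16.5. Lag3 was a partner in the other wide CD8 pairs too, with 38 cells where 6.81 were given for Cd160, 29 where 5.30 were given for Tigit and 65 where 18.1 were given for Ctla4. In CD4 cells Lag3 and Cd200 were found in 63 cells where 13.7 were given (ratio 4.61, and 2.05 within strata). Tigit and Ctla4 shared 334 cells where 150 were given (2.22, and 1.28 within strata). In Foxp3 cells the same pair shared 202 cells where 169 were given (1.20), and Lag3 and Tigit 35 where 17.5 were given (2.0).

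**Figure D5:**
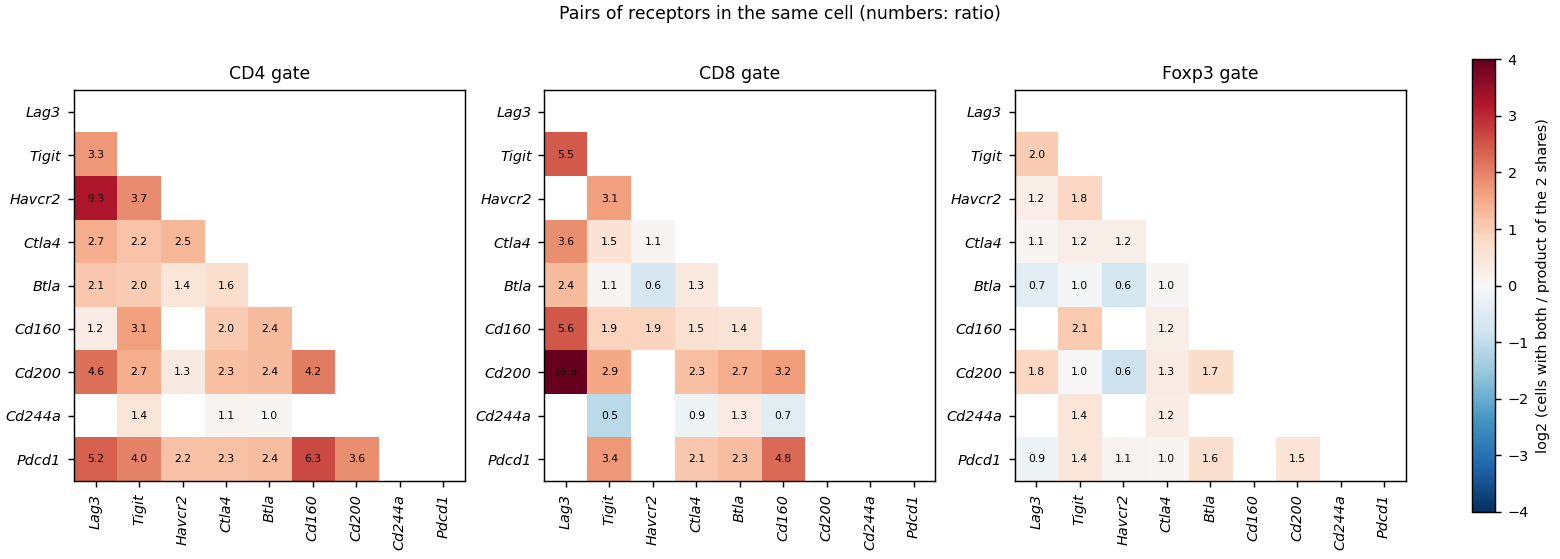
Ratio of cells with both genes to the product of their shares, for pairs of the 8 receptors and Pdcd1, in thinned cells of the CD4, CD8 and Foxp3 gates (colour scale). Blank fields have a product under 1 cell or no cell with both; the field of Lag3 and Cd200 in CD8 cells is the highest named in the text at 16.6.

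Cells with a PD-1 transcript carried more of the other receptors. In the CD4 gate 334 thinned cells had Pdcd1 and 6309 had none. Tigit was in 44.0% of the cells with Pdcd1 and 8.67% of those without, Ctla4 in 48.8% and 19.2%, Cd200 in 26.9% and 6.29%, Lag3 in 14.7% and 2.14%, and Cd160 in 8.38% and 0.951%. Each of these shares, and that of Btla (32.3% and 12.6%), was higher in the cells with Pdcd1 in 4 of 4 libraries. Within follicular CD4 cells the shares lay closer, with Tigit in 50.6% of 255 cells with Pdcd1 and 41.6% of 862 without, and Ctla4 in 49.4% and 45.6%.

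In the CD8 gate only 87 thinned cells had Pdcd1. Cd160 was in 20.7% of them and 4.20% of the 17066 cells without, Cd200 in 16.1% and 0.955%, Lag3 in 13.8% and 0.873%, and Havcr2 in 10.3% and 0.387%. In Foxp3 cells 34 had Pdcd1, and Tigit was in 52.9% of them and 36.0% of the other 650, while Lag3 stood at 5.88% and 6.92%.

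Transcripts that accompanied each receptor differed between genes. CD8 cells with Havcr2 (202 cells) had 219 CPM of Klrc1, which encodes the inhibitory receptor NKG2A, against 6.68 CPM in CD8 cells without, and 37.9 against 4.28 CPM of Pdcd1. They had 88.8 against 595 CPM of Tcf7, the gene of the stem-like and naive T cell factor TCF-1 (picked after its values were seen). Klrc1 and Pdcd1 were higher with Havcr2 in 4 of 4 libraries and Tcf7 in 0 of 4. CD8 cells with Lag3 (442 cells) had 44.3 against 2.94 CPM of Pdcd1, and those with Cd160 (1543 cells) 25.8 against 2.31 CPM.

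CD4 cells with Tigit (1073 cells) had 261 CPM of Tox2, a factor gene of follicular helper cells that also entered the follicular gate, against 22.2 CPM in those without, and 306 against 50.8 CPM of the factor gene Maf. CD4 cells with Ctla4 (2126 cells) had 286 against 45.4 CPM of Ikzf2, which encodes the regulatory T cell factor Helios. The gate itself leaves out cells with a Foxp3 UMI, so regulatory T cells whose Foxp3 transcript was missed can be among these cells. CD4 cells with Havcr2 (86 cells) had 421 against 134 CPM of Ikzf2 and 6.55 against 79.2 CPM of Tox2. Ikzf2 was higher and Tox2 lower with Havcr2 in that gate. In Foxp3 cells Tigit (382 cells) accompanied Klrg1, a receptor gene of differentiated cells, at 95.8 against 5.63 CPM, and Icos, a costimulatory receptor gene, at 1142 against 332 CPM.

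Likeness of level was measured by Pearson's r of log2 CPM plus 1 over 20 profiles, the 5 gates in 4 libraries, among 7879 genes. The profiles share libraries and differ mostly by gate, so r is a description. Ctla4 was most like Icos (0.994), Ikzf2 (0.985) and Cd2 (0.983), and Tigit most like Ap2s1 (0.985), Fam110a (0.982) and AU020206 (0.981). Btla was most like Hivep2 (0.987), Ptpn11 (0.972) and Ptprc (0.968), and Cd200 most like Smarca5 (0.972), P2rx7 (0.969) and Prkca (0.961). Lag3 was most like Cemip2 (0.966), Uba1 (0.960) and Sar1b (0.955), and Havcr2 most like Vim (0.925), Ccr2 (0.915) and Il18r1 (0.909). Cd160 was most like Ostf1 (0.899), Eomes (0.875) and Gzmk (0.871), and Cd244a most like Borcs7 (0.833), Ctla2a (0.778) and Pin4 (0.752). Among the members Lag3 and Tigit were most alike (0.941), and Ctla4 and Cd160 least (-0.61).

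The genes around the receptors were described from lists of their ligands, partners and factors, first between KO-DOX and WT-DOX over T cells. Of 9 ligand genes counted, 2 were higher, Lgals3 at 23.9 against 17.0 CPM (galectin-3, a LAG-3 ligand) and Cd80 at 4.48 against 3.06 CPM, and 0 were lower. Of 7 activating receptor genes 0 passed the size, and of 13 signalling genes only the adaptor gene Sh2d1a did, at 127 against 100.1 CPM. Of 15 transcription factor genes 2 were higher, Tox2 at 32.0 against 16.8 CPM and Maf at 52.1 against 30.9 CPM. Of 10 other inhibitory receptor and ectoenzyme genes 4 were higher, led by Pdcd1 (23.3 against 12.4 CPM) and Klrc1 (14.1 against 9.33 CPM). No listed gene was lower by the size, and the list medians ran from 0.02 to 0.24 where the members' median was 0.60.

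In the other comparisons over T cells few listed genes passed the size. Between KO-DOX and KO-CTRL they were Cd80, Tox2 (32.0 against 19.9 CPM), Pdcd1 (23.3 against 17.9 CPM) and Klrc1, all higher in KO-DOX. Between WT-DOX and WT-CTRL they were Lgals3, Maf (30.9 against 48.3 CPM), Ikzf2 (96.3 against 122 CPM), Klrg1 and Klrc1, all lower in WT-DOX. Between KO-CTRL and WT-CTRL Tox2, Nt5e and Cd101 were higher in KO-CTRL and Klrg1 lower, at 3.09 against 5.95 CPM. No activating receptor or signalling gene passed it in these 3 comparisons.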

How the data were processed

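The authors deposited 1 matrix of UMI counts per library (4 libraries, 48597 barcodes), from sorted T cells and a 5′ droplet kit per the labels' protocols. The genome was mm10 per the submitters' processing notes, and the alignment and cell-calling tools were not named there. Each deposited matrix held raw counts per gene with no normalization.

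Cells were kept from 300 detected genes upward if mitochondrial transcripts made up 10% of their UMIs or less. Doublets above a Scrublet score of 0.25 were removed (1073 cells), because the automatic threshold marked 1 cell in all. T cells were gated by Cd3 UMIs, leaving out cells with 2 or more UMIs of other lineages, and B-gated cells needed 3 UMIs of B cell markers and no Cd3 UMI. Counts were summed per library and gate, divided to CPM, and compared as the log2 fold of CPM plus 1, with Poisson intervals. Shares have exact Clopper-Pearson intervals. All intervals cover counting error only, at a confidence level of 95%. With 1 library in each group no test was run. A limit for a count of 0 is 3 counts of the total. Library totals ran from 37754389 to 47081849 UMIs, and depth per T cell was 3024 to 3105 UMIs at the median.

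A gene was counted past a log2 fold of 0.32 if it averaged at least 2 CPM and had at least 100 UMIs over the libraries in the cells compared. The text names all 8 members, the 3 genes most like each over the profiles, and at most 2 genes past the size per list, direction and comparison, beside the gate genes and Pdcd1. The members and lists were chosen with earlier results of these data known. The summing and folding were checked on simulated data. Alternatives covered scaling, pseudocount, doublets, filters, cell weights, cell mix, gates, thinning and the top cell of each gene, and 2 more (without dividing cells, and 6 strata at equal proportions) were chosen after seeing the data. Tools were Python 3.11.15, pandas 2.3.3, numpy 2.4.6, scipy 1.17.1, matplotlib 3.10.9, scanpy 1.11.5 and scikit-learn 1.9.0.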

Additional observations from a re-analysis of the deposited data

Results flagged for a closer look

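There were 5 genes with responses to doxorubicin over gated T cells that were more positive in knockout than in control-genotype libraries, by an interval of counting error that leaves out 0 and with opposite signs in the 2 genotypes. The difference of log2 folds, knockout minus control genotype, was 0.656 for Lag3, 0.732 for Tigit, 0.922 for Havcr2, 0.516 for Ctla4 and 0.159 for Btla. Each value rests on 4 libraries, 1 per group, so the difference between genotypes was not tested. The share of all genes that meet the same rule was not counted, so the number 5 is not read as a trait of the receptors. For Lag3 the knockout response was 0.04 and for Btla the control-genotype response was -0.02, both close to 0. The opposite signs were lost for Tigit and Btla under other weights. Their control-genotype responses were 0.08 and 0.03 with each cell at the same weight, and 0.05 and 0.07 with 6 strata of cells at equal proportions. The order of the libraries for Lag3, Tigit, Havcr2 and Ctla4 is given with their levels in the report. Mki67, a gene of dividing cells, was lowest in WT-DOX at 49.2 CPM. Without cells with 2 or more UMIs of Mki67 and Top2a the log2 folds in knockout and control-genotype mice were 0.35 and -0.25 for Havcr2, 0.71 and -0.03 for Tigit, 0.37 and -0.26 for Ctla4 and 0.04 and -0.51 for Lag3, and for Btla they were 0.23 and -0.01.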

How the results depend on the processing

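No paired analysis was possible because each group is 1 library. Over the alternatives, 620 of 676 log2 folds stayed inside their counting interval, 53 moved outside it and 3 past the size of 0.32 reversed, and 18 of 246 values of folds past the size fell below it. Among folds inside the size, 29 values had the opposite sign. Of 112 counts of members past the size, 10 differed by over 1.5 times. Between KO-DOX and KO-CTRL over T cells the count was 3 in place of 1 with each cell at the same weight and 3 without cells with 2 or more UMIs of Mki67 and Top2a. In the CD8 gate between KO-DOX and KO-CTRL it was 1 in place of 2 without the top cell, with stricter gates (2 Cd4, 3 CD8 and 2 Foxp3 UMIs) and with the CD8 gate at 1 UMI. In the Foxp3 gate between KO-DOX and WT-DOX it was 2 in place of 4 without the top cell and with stricter gates. Stricter gates also gave 4 in place of 2 between KO-DOX and KO-CTRL and 2 in place of 1 between KO-CTRL and WT-CTRL for Foxp3 cells, and 0 in place of 2 between KO-CTRL and WT-CTRL for CD4 cells. The same gates reversed the log2 fold of Havcr2 in CD4 cells between KO-CTRL and WT-CTRL (-0.095) and those of Lag3 (-0.016) and Cd200 (0.023) in Foxp3 cells between KO-DOX and WT-DOX. The cause was not tested. Of 540 shares of cells, 242 stayed inside their interval when thinning, gates or doublets changed, so shares are read only at 1 depth. Depth limits Cd244a in every gate, and Havcr2, Cd160 and Lag3 in Foxp3 cells.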
